A study of Mus musculus with 4 samples.

Results

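Of 124962 broad H3K79me2 peaks called in the control library, 98333 were weak and had no counterpart in the inhibitor library. Weak means a q-value above 0.05, and no counterpart means that no peak of the inhibitor list overlapped by 1 bp or more. These unshared weak peaks made up 78.7% of the control list and 64.3% of its covered length, 151 of 235 Mb. The q-value of the control call and the overlap with the inhibitor list chose them, so their number, their q-values and their absence from the inhibitor list are no findings. The other control peaks were 25825 weak peaks that overlapped an inhibitor peak and 804 strong peaks with q of at most 0.05.

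H3K79me2, dimethylation of lysine 79 on histone H3, is made by the methyltransferase DOT1L, mostly in the 5′ portion of genes that are being transcribed. It is not known as a mark of intergenic sequence or of silent genes, and a broad peak caller run at a lenient threshold returns both marked domains and short stretches barely above background. Thymocytes at the DN3 stage express the T cell programme and rearrange T cell receptor genes, whereas odorant receptor genes and most long genes of neurons are known to be silent in blood cells.

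The 4 samples came from C57BL/6 haematopoietic stem cells that were grown to DN3 on OP9-DL1, a mouse stromal line with the Notch ligand Delta-like 1, with Flt-3L and IL-7. The control group received DMSO and the inhibitor group received A939572, which blocks SCD1, the desaturase that makes oleic acid from stearoyl-CoA. Each group had 1 H3K79me2 ChIP library and 1 input, and the inputs are not analysed here. The sources used here do not give the dose, the number of animals or whether feeder cells were removed. With 1 library per condition there was no replicate error and no test between conditions. Poisson and Wilson intervals (95%) cover counting error only and treat peaks as independent.

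The labelled cell type was visible in the other control peaks. Of 16 genes of the DN3 programme, 9 held a strong control peak and 14 were covered over at least 50% of their body in the inhibitor list. None of the 16 held a base of an unshared weak peak, as the rule leaves little room for one, against 34.7% of 21887 coding genes (7586 genes). Such peaks touched 3 of 8 genes of the OP9 feeder, 3 of 6 B cell genes, 4 of 6 myeloid genes, 2 of 6 natural killer genes and 0 of 4 erythroid genes. Among the 3 feeder genes, Fbn1, which encodes the matrix protein fibrillin-1, held 18 of them over 16.7% of its body. It is the longest of the 8 listed feeder genes, at 206 kb, and Col1a2 and Pdgfrb held 1 each. The highest covers among all the listed markers were at 2 natural killer genes, Klrb1c with 40.2% and Klrd1 with 35.1%. Both are killer cell lectin-like receptor genes on chromosome 6. Of the other natural killer genes, Ncr1, Eomes and Prf1 held no base of a control peak. Gzma was covered over 67.9% by strong control peaks and over 98.5% by inhibitor peaks.

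As examples of gene starts, which few such peaks covered, 4 that fell wholly inside one are printed. Beside them stands the start of Bcl11b, a T cell commitment factor under a strong control peak. Each sequence runs from 250 bases before to 50 bases after a RefSeq start (GRCm38.p6, the assembly named mm10), 5′ to 3′ on the gene's strand, and capitals mark the dinucleotide CG, the site of DNA methylation. Klra7 encodes a natural killer receptor of the Ly49 family (chr6:130231638-130231937, minus strand). Pde4d encodes a phosphodiesterase that degrades cyclic AMP (chr13:108653927-108654226, plus strand). Olfr1016 (chr2:85800219-85800518, minus strand) and Olfr1032 (chr2:86007528-86007827, plus strand) encode olfactory receptors. The window of Bcl11b lies at chr12:108003365-108003664 on the minus strand.
Klra7: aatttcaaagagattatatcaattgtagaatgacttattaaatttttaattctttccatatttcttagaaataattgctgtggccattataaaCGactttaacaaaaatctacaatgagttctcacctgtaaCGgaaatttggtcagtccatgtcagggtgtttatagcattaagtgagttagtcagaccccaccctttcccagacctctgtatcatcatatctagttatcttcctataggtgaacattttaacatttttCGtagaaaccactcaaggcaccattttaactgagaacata
Pde4d: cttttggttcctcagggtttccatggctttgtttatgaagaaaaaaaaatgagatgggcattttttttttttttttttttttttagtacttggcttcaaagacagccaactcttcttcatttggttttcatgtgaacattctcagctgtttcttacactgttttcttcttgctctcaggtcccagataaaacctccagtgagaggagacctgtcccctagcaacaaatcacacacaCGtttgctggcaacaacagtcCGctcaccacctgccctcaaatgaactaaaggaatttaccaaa
Olfr1016: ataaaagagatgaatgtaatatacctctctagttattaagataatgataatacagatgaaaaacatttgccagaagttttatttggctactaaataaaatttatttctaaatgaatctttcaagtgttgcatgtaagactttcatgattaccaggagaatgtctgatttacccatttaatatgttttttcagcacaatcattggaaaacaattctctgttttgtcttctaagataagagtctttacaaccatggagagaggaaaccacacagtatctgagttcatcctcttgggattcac
Olfr1032: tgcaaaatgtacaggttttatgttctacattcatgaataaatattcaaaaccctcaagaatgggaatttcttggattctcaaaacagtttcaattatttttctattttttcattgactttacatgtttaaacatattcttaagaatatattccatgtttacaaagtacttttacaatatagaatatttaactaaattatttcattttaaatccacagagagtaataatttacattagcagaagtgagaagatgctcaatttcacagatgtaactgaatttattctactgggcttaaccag
Bcl11b: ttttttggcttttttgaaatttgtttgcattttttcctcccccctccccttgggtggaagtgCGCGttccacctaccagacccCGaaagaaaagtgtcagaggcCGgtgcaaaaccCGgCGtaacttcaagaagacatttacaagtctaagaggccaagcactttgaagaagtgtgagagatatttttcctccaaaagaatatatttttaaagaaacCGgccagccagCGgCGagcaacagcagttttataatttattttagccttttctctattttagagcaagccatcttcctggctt
The 4 starts under weak peaks held 3, 2, 0 and 0 CG pairs in this order, and the Bcl11b window held 9. Their GC content was 33.0% at Klra7, 39.7% at Pde4d, 31.0% at Olfr1016 and 26.3% at Olfr1032, against 43.0% at Bcl11b. The weak peaks over them were 6761, 2307, 1814 and 4348 bp wide with folds of 1.81, 1.80, 1.65 and 1.76, whereas the peak over the Bcl11b start was 88645 bp wide with a fold of 3.20.

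Over all starts inside such peaks, GC content and CG pairs were also low, though the 4 printed starts were poorer in GC than the median start. Of 32851 RefSeq start windows, 801 lay wholly inside an unshared weak peak (2.44%). Their median GC content was 43.3% (interquartile range 37.7 to 49.3), against 52.7% over all windows and 61.5% for the 412 windows inside a strong control peak. They held a median of 3 CG pairs, against 7 over all windows and 23 under strong control peaks. So the starts inside unshared weak peaks were GC-poor, and those inside strong peaks CG-rich. The letters TATAAA, searched on both strands, were present in 24.6% of the windows (Wilson interval 21.7 to 27.7), against 13.6% of all windows. Receptor genes made up 128 of the 801 windows, 16.0% (13.6 to 18.7), against 4.09% of all windows. Without receptor genes the median GC content was 45.0%, against 53.3% for all windows without them. Starts inside inhibitor peaks were excluded by the rule, and they had a median GC content of 60.7%. The windows that neither list touched had 50.7%, closer to the value over all windows.

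Only 475 of the unshared weak peaks covered the start of a coding gene, 0.483% (Wilson interval 0.442 to 0.528). Of the weak peaks with an inhibitor counterpart 2.61% (2.43 to 2.82) did, and of the strong control peaks 33.4% (30.2 to 36.7).

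Unshared weak peaks were short and close to the calling limit. Their median width was 1186 bp (interquartile range 634 to 1899), with a lowest value of 381 bp and a highest of 21404 bp. Weak control peaks with an inhibitor counterpart had a median width of 1715 bp and strong ones of 8377 bp. Only 2.59% of the unshared weak peaks exceeded 5 kb, against 13.1% and 68.3% of the other classes. The widths had a pair of modes, near the shortest widths called and again between 1 and 2 kb. The fold enrichment, which is the authors' ratio averaged over each peak, had a median of 1.66 (interquartile range 1.62 to 1.75) and a highest value of 2.61. For weak peaks with a counterpart the median was 1.65, so the classes of weak peaks differed in width and hardly in fold. Strong peaks had a median of 2.53. The rule bears on both measures, since a wider peak meets an inhibitor peak more easily and the fold comes from the call that gave the q-value. Differences between the classes in width and fold are therefore a description only. A q-value of exactly 1 was listed for 77042 of the unshared weak peaks, 78.3%, and for 57.9% of the weak peaks with a counterpart.

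**Figure D1:**
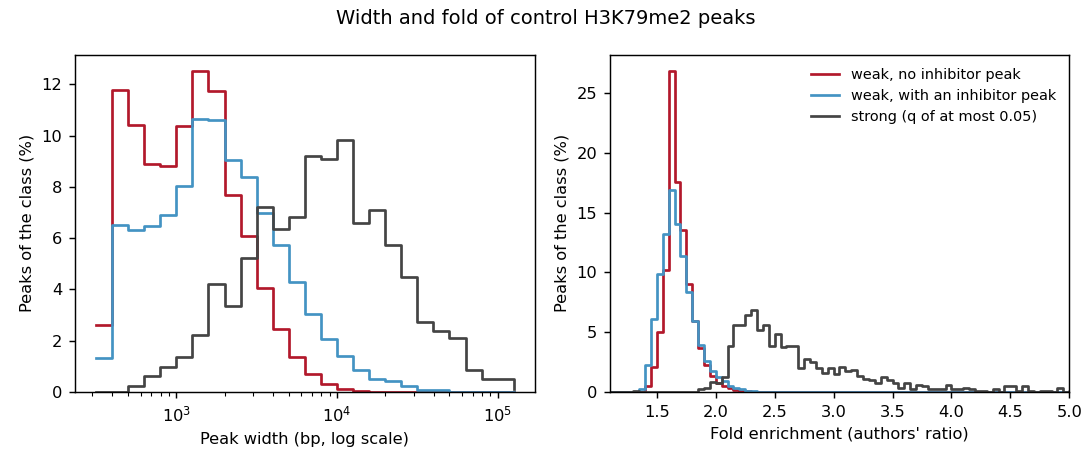
Width (left, bp on a log scale) and fold enrichment (right, the authors' ratio) of 3 classes of control peaks, each as the percent of its class per interval. The unshared weak peaks (red) are the narrowest class, with a median of 1186 bp, and share the fold range of weak peaks with an inhibitor counterpart (blue), whereas strong peaks (grey) lie at wider widths and higher folds.

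A single value recurred among them. The fold was exactly 1.62034 and −log10 p exactly 1.28145 in 8348 unshared weak peaks (8.49%), and the next most frequent fold occurred in 43. Of the weak peaks with an inhibitor counterpart, 300 (1.16%) had that fold, and 0 strong peaks did. The inhibitor list had a recurrent fold of its own, 1.47407, in 2723 peaks (7.78%). The peaks at the control value had a median width of 899 bp and 31.4% of their bases in coding genes. Width and fold were nearly unrelated: the median fold went from 1.67 in the narrowest 10% of the unshared weak peaks to 1.64 in the middle and 1.70 in the widest 10%.

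The values around the chosen threshold were sparse. The member with the highest −log10 q had 1.23, a width of 623 bp and a fold of 1.98, on chromosome 10. The next ones had 1.13 and 1.11. Just outside, 11 strong control peaks also lacked an inhibitor counterpart, the weakest with −log10 q of 1.37, a width of 1375 bp and a fold of 2.19 on chromosome 1. On the other side of the overlap rule, 402 weak peaks shared less than 100 bp with an inhibitor peak, and 3213 unshared weak peaks lay within 1 kb of one.

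The 8 widest unshared weak peaks were divided evenly between peaks that touched a coding gene and peaks that touched none. The widest, 21.4 kb at fold 1.72, overlapped Klra7 (chromosome 6, 130202746 to 130224149), and the nearest inhibitor peak was 360 kb away. The body of Klra7 runs from 130218605 to 130233322, so most of that peak lay outside the gene. The second, 19.1 kb at fold 1.82, lay over Edil3, which encodes an extracellular matrix protein (chromosome 13, 89266312 to 89285422). A peak of 18.8 kb lay in Gtdc1, a glycosyltransferase-like gene on chromosome 2. Of the 8 widest, 4 lay outside coding genes, at 427 kb from Fam174a, 365 kb from Gm5861, 1086 kb from Zfp386 and 1081 kb from Zeb2. The one nearest to Zfp386 (chromosome 12, 114944103 to 114961268) lay among immunoglobulin heavy chain segments, which are not counted as coding genes. The −log10 q of these named peaks was low in spite of their width, between 0.0115 and 0.0967.

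The 8 members with the highest fold were short instead, from 475 to 3491 bp, with folds from 2.48 to 2.61. They lay in 1700025G04Rik (chromosome 1), Jazf1 (chromosome 6), a zinc finger gene at which chromatin regulators are fused in tumours, Rex2 (chromosome 4) and Rufy3 (chromosome 5). The remaining 4 were outside coding genes, with Olfr373, Intu, Gm40469 and Negr1 as the nearest. The peak in 1700025G04Rik was 0.881 kb from an inhibitor peak, and the peak nearest to Intu was 565 kb from one. Width and fold therefore named different peaks, with none in both groups of 8.

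Density differed between chromosomes. Counted by their midpoints, unshared weak peaks numbered 40.7 per Mb on the autosomes (Poisson interval 40.4 to 40.9), leaving out the unassembled first 3 Mb of each. Chromosome 10 was highest with 56.5 per Mb (55.2 to 57.9), followed by 53.8 on chromosome 13, 51.7 on chromosome 2 and 50.5 on chromosome 3. Chromosome 7 was lowest with 23.6 (22.8 to 24.4), followed by 25.9 on chromosome 19, 27.7 on chromosome 11 and 28.8 on chromosome 15. The highest autosome thus had 2.39 times the density of the lowest, far beyond counting error. The order was not that of the other list. Weak inhibitor peaks with no control peak were fewest on chromosome 3, with 5.47 per Mb, and more frequent on chromosomes 11 and 19, which were low in the control class, with 10.1 on chromosome 19. Over the 19 autosomes, the density of unshared weak control peaks had r = −0.49 with the number of coding genes per Mb and r = −0.36 with the density of the unshared weak inhibitor peaks, as descriptions only.

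Chromosome X stood apart. It had 517 unshared weak control peaks, 3.08 per Mb (2.82 to 3.35), and the autosomes had 13.2 times that density. Weak control peaks with an inhibitor counterpart were also sparser on X, with 2.24 per Mb against 10.6 on the autosomes. Weak inhibitor peaks with no control counterpart were 3.65 per Mb on X and 7.83 on the autosomes, a smaller gap than in either class of weak control peaks. Chromosome Y had 3 members. The number of X chromosomes per cell is not given by the labels, and its part in the gap was not tested. Median widths on the autosomes went from 1058 bp on chromosome 8 to 1308 bp on chromosome 13, and X had 800 bp.

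**Figure D2:**
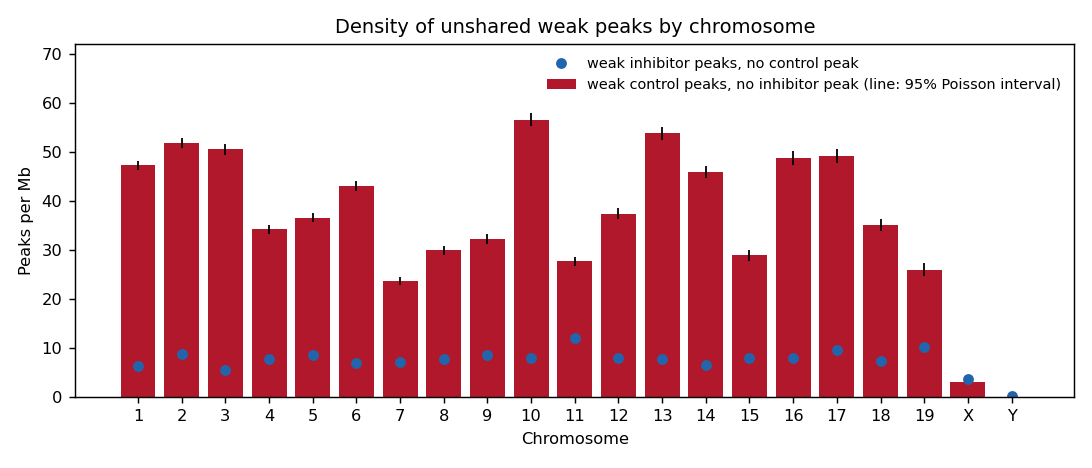
Unshared weak control peaks per Mb of each chromosome (bars, with 95% Poisson intervals of counting error) and weak inhibitor peaks with no control peak (points). Bars run from 23.6 on chromosome 7 to 56.5 on chromosome 10 among autosomes and fall to 3.08 on X, whereas the lowest autosomal point is 5.47, on chromosome 3.

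Within chromosomes, the peaks were unevenly spread at the scale of megabases. Over 2397 autosomal bins of 1 Mb, the count per bin had a median of 35, a lowest value of 0 and a highest of 141, and 1017 bins (42.4%) exceeded the autosomal density. Its variance, 703, was far above its mean of 40.6. Bins with 100 members or more were 3.34% of all and held 9.29% of the members. Neighbouring bins were alike, with r = 0.66 between adjacent bins and 0.27 at a distance of 10 bins. The longest run of bins with at least 56 members, the 75th percentile, spanned 24 Mb on chromosome 2 (39000001 to 63000000) with 83.9 members per Mb and 57 to 130 per bin. The next spanned 22 Mb on chromosome 10 (94000001 to 116000000) with 84.4, and 17 Mb on chromosome 1 (137000001 to 154000000) with 94.3. These runs were picked by their counts and are given as a description.

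The densest bins held few coding genes. The first, 114000001 to 115000000 on chromosome 12, had 141 members over 32.5% of its length and no coding gene, and lay in the immunoglobulin heavy chain locus. A bin on chromosome 1 (145000001 to 146000000) had 132 and no coding gene. With 130 each came a bin on chromosome 17 that held only Fshr, the receptor of follicle-stimulating hormone, and a bin on chromosome 2 (46000001 to 47000000) with no coding gene. Inhibitor peaks covered between 0.244% and 1.03% of these 4 bins.

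Gene-poor bins held more members. The 209 bins with no coding gene body had 55.2 ± 28.9 members (mean ± SD over bins), and the 50 bins with over 40 gene bodies had 27.6 ± 24.8. The bins overlapped widely, from 7 to 141 and from 2 to 94. Bins without a gene were 8.72% of all bins and held 11.9% of the members. Over all bins, Spearman's rho between members and coding gene bodies was −0.28, a weak relation. The unshared weak inhibitor peaks went the other way: bins without a gene held 1.74% of them, at a mean of 1.57 per bin, and bins with over 40 gene bodies had a mean of 15.7. Their rho with gene bodies was 0.64.

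**Figure D3:**
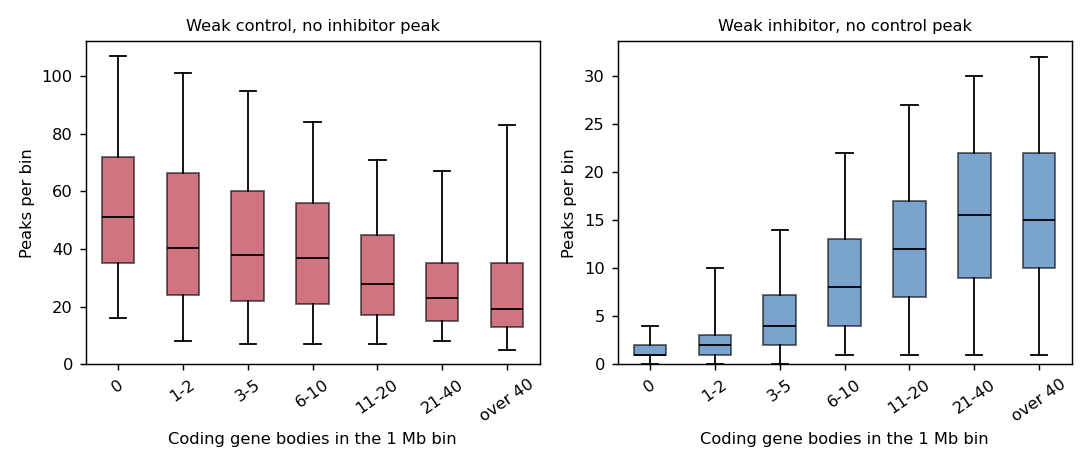
Peaks per autosomal bin of 1 Mb by the number of coding gene bodies in the bin, for unshared weak control peaks (left) and weak inhibitor peaks with no control peak (right). Boxes show quartiles and the median, whiskers the 5th to 95th percentile of bins; the left medians go from 51 down to 19 as genes increase, and the right boxes go up.

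Seen by bases, the preference for gene-poor sequence was slight. Of the bases of unshared weak peaks, 33.1% lay in coding gene bodies, against 38.7% of the genome. The rule forbids sequence under inhibitor peaks, which are mostly genic. Over autosomal sequence outside inhibitor peaks, 35.8% was in coding gene bodies and 33.0% of the members' bases were. Members covered 6.37% of that sequence inside coding genes and 6.90% of it as a whole, so the cover was close. Weak control peaks with an inhibitor counterpart had 89.5% of their bases in coding genes, strong control peaks 91.3% and unshared weak inhibitor peaks 81.0%. Among the 4 classes only the unshared weak control peaks had a genic share near that of the genome.

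The median gap between neighbours was 9.76 kb (interquartile range 4.21 to 23.5). No gap was below 1527 bp. The nearest inhibitor peak was a median of 56.4 kb away (15.2 to 168). Within 10 kb of an inhibitor peak lay 19.2% of the members, and beyond 100 kb lay 36.9%.

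Cover changed with the distance to inhibitor peaks. Members covered 2.37% of the bases within 1 kb of an inhibitor peak, where a peak that reaches the inhibitor peak is removed by the rule, and 8.14% from 1 to 5 kb. From 5 to 10 kb they covered 11.1%, from 10 to 50 kb 9.67%, from 50 to 100 kb 7.40%, from 100 to 500 kb 5.34% and farther away 3.81%. Beyond the first kilobase, cover was therefore highest from 5 to 10 kb and lowest beyond 500 kb. Peaks removed by the rule can also reach past the first kilobase. The lower cover from 1 to 5 kb than from 5 to 10 kb cannot be told apart from that removal. Inside coding genes the values at 5 to 10 kb and beyond 500 kb were 10.1% and 3.11%, and outside them 11.9% and 4.09%. Measured from inhibitor peaks with q of at most 0.05 alone, cover was 7.82% at 5 to 10 kb and 6.84% beyond 500 kb. Inside coding genes it was then 5.13% and 6.37%, and outside them 10.1% and 7.02%, so the direction differed between the kinds of sequence.

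The listed long genes were about as dense as the autosomes, and their place relative to them depended on which peaks and which sequence were counted. Of 102 listed long genes, known from neurons and muscle, 100 were measured, and they held 3952 unshared weak peaks in 100 Mb. On autosomes they had 41.5 per Mb (40.3 to 42.9), against 40.7 for the autosomes and 40.6 for other autosomal coding genes of at least 300 kb. Per Mb outside inhibitor peaks the list had 41.7 and the autosomes 44.9. Counting only peaks with no inhibitor peak within 10 kb, the list on autosomes had 39.1 per Mb (37.8 to 40.3) and the autosomes 32.9. These values are per Mb of all sequence, also that within 10 kb of an inhibitor peak, where this setting allows no peak. The listed genes had little inhibitor cover and so lost less by it. The gap is therefore partly built in and does not show an excess in the list. Counting only peaks of at least 1 kb, the list had 22.4 per Mb (21.4 to 23.3), just below the autosomes with 23.4. With all peaks counted, the interval of the list included the autosomal 40.7. Of the 100 genes, 45 were above the autosomal density, against 40.2% of all coding genes of at least 300 kb. All 100 held at least 1 member, which their length makes likely. Inhibitor peaks covered a median of 0.0488% of the listed genes, under 1% in 96 of them, and no strong control peak touched any. Of all 557 coding genes of at least 300 kb, 410 had inhibitor cover under 1% and 549 had no strong control peak. The lack of strong peaks was thus near that of long genes in general.

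Long genes differed widely from each other. Of all coding genes of at least 300 kb, the one with the most members was Lrp1b, a large receptor of the LDL receptor family, which had 159 (77.2 per Mb, 12.7% covered). Gpc5, a glypican that carries heparan sulphate, had 147 (103 per Mb, 19.3% covered). Macrod2, an ADP-ribose hydrolase, had 130 (65.1 per Mb), and Robo2, an axon guidance receptor, 111 (71.4 per Mb). Pard3b, a cell polarity gene, had 109 members, Lrrc4c, a synaptic adhesion gene, had 108 and Ptprd, a receptor phosphatase of synapses, had 101. Cntnap2, which encodes a cell adhesion protein of axons, had 98. In these 8 genes inhibitor peaks covered at most 0.351%. Pde4d had 119 members (91.4 per Mb) and an inhibitor cover of 21.8%. Pde4d and Pard3b are not among the listed genes.

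At the low end of the listed genes, the long cadherin gene Cdh13 had 3 members in 1185 kb (2.53 per Mb) and the netrin receptor gene Unc5d had 1 in 573 kb. Dmd, the dystrophin gene on chromosome X, had 1 in 2390 kb, and the X-linked Il1rapl1 and Il1rapl2 had 2 and 3. Among listed genes the density went from 0.418 to 142 per Mb with an interquartile range of 18.9 to 59.8. These 5 sparse genes were chosen after their values were seen.

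The 5 long genes with the most bases under inhibitor peaks, which need not have the highest percent, held few members, as the rule implies. Foxp1, a forkhead transcription factor, had 1 member beside an inhibitor cover of 94.6%. Maml3, a Notch co-activator, had 0 at 99.1%, Aff3 had 2 at 88.7%, Foxn3 had 0 at 99.0% and Elmo1, a regulator of cell migration, had 6 at 67.4%.

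The position within long genes also differed. Gene bodies were divided into 10 equal sections, for autosomal genes of at least 300 kb whose strand the start windows give. In 290 genes with inhibitor cover under 1%, members covered between 5.10% and 5.73% of each section outside inhibitor peaks, so the profile was nearly level from 5′ to 3′. In 70 genes with inhibitor cover of at least 10%, inhibitor peaks covered 71.1% of the first section and 18.8% of the last. Members there covered 8.53% of the remaining sequence in the first section, 18.5% in the seventh and 10.8% in the last. Weak control peaks with an inhibitor counterpart fell from 28.8% of the first section to 5.52% of the last. Over all autosomal genes of that length, with or without a known strand, members numbered 37.9 per Mb outside inhibitor peaks in the 392 genes with inhibitor cover under 1% and 73.3 in the 84 genes with at least 10%. Over the whole gene bodies the values were 37.9 and 44.5 per Mb, a smaller gap. The cut-offs of 1% and 10% were chosen after the peaks had been seen.

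**Figure D4:**
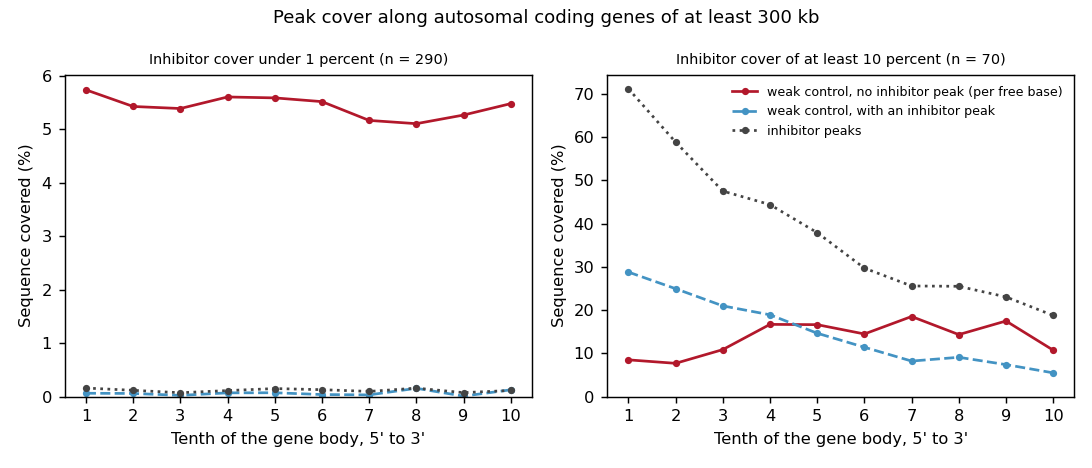
Percent of sequence covered in each of 10 equal sections of the gene body, 5′ to 3′, for autosomal coding genes of at least 300 kb with inhibitor cover under 1% (left, 290 genes) and of at least 10% (right, 70 genes); lines show unshared weak control peaks per base outside inhibitor peaks (red), weak control peaks with an inhibitor counterpart (blue) and inhibitor peaks (grey). Red is flat between 5.10% and 5.73% on the left and reaches 18.5% in the seventh section on the right, where grey falls from 71.1% to 18.8%.

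Clusters of receptor genes were denser than the autosomes as a whole. Over 88 clusters of 8 receptor families (runs of at least 3 genes with gaps of at most 500 kb), members numbered 51.7 per Mb (50.02 to 53.4). On autosomes the value was 52.4, against 40.7 for all autosomal sequence. Outside inhibitor peaks these were 53.9 and 44.9 per Mb. Of the 88 clusters 44 were above the autosomal density, against 42.4% of all autosomal bins, so dense and sparse clusters were about equally frequent. Families can share a cluster, and sequence that several families held was counted once in the total.

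Olfactory receptors, the odorant sensors of the nose, had 52.9 members per Mb (50.3 to 55.5) over 42 clusters. Their largest cluster, 293 genes on chromosome 2 (85330967 to 90401674), held 419 members, 82.6 per Mb (74.9 per Mb at the lower bound), and inhibitor peaks covered 0.219% of it. A cluster on chromosome 7 held 214 (74.0 per Mb). Of the 42 olfactory clusters, 22 were above the autosomal density. Among the others, the one on chromosome 9 that starts with Olfr160 held 72 in 2477 kb (29.1 per Mb), and 5 held no member. Vomeronasal type 2 receptors, which sense pheromones, had 51.0 per Mb (47.6 to 54.6). Their cluster on chromosome 17 from Vmn2r90 to Vmn2r110 held 342 members at 118 per Mb, over 30.9% of its length. Vomeronasal type 1 receptors, another pheromone receptor family, went the other way with 26.9 per Mb (24.1 to 30.1), and their 99 genes on chromosome 7 (20101158 to 24055691) had 8.09. Their cluster with the most members, 86 on chromosome 17 (20121717 to 21323764), overlaps the end of that type 2 cluster, which runs from 17703941 to 20596259.

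Smaller families were dense. Taste receptors had 60.1 per Mb (45.2 to 78.2) in 4 clusters, with 31 members in the cluster from Tas2r120 on chromosome 6. The trace amine receptors had 17 members in 1 cluster of 189 kb, 89.9 per Mb (52.4 to 144). The killer cell lectin-like receptors, which natural killer cells use to sense target cells, had 181 members in 1778 kb on chromosome 6 (128609227 to 130386874), 102 per Mb (87.5 to 118). Members covered 27.8% of that cluster and inhibitor peaks 11.6%. Within it, members covered 83.6% of Klra7, 75.6% of Klrc1 and 66.1% of Klrk1, all with 0% in the inhibitor list. Klrc1 and Klrk1 encode the receptors NKG2A and NKG2D.

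**Figure D5:**
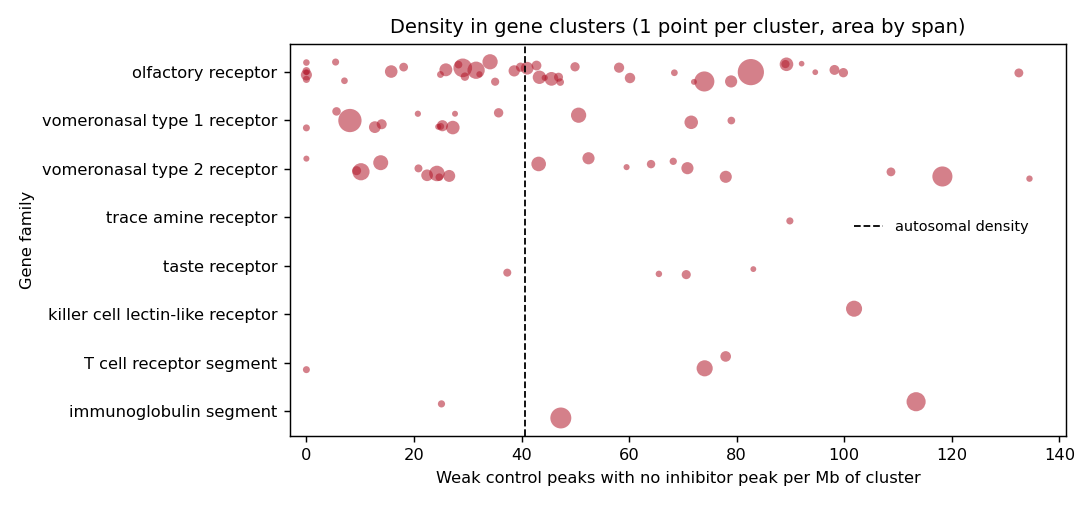
Unshared weak control peaks per Mb in each of 88 gene clusters, 1 point per cluster with an area that grows with its span, by gene family. The dashed line is the autosomal density of 40.7; olfactory and vomeronasal clusters lie on both sides of it, from 0 to over 130 per Mb, and the killer cell lectin-like cluster lies at 102.

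Antigen receptor loci differed among themselves. The immunoglobulin heavy chain locus on chromosome 12 (113407535 to 116009954), which rearranges in B cells, had 295 members, 113 per Mb (101 at the lower bound), over 28.1% of its length. Inhibitor peaks covered under 1% of it. The kappa light chain locus on chromosome 6 had 150 members (47.3 per Mb) and the lambda locus on chromosome 16 had 5 (25.1 per Mb). Of the T cell receptor loci, alpha and delta on chromosome 14 had 133 members (74.0 per Mb) at an inhibitor cover of 6.77%, and beta on chromosome 6 had 52 (78.0 per Mb) at 36.5%. The gamma locus on chromosome 13 had 0, at an inhibitor cover of 92.9%, and strong control peaks covered 64.6% of it. That inhibitor cover leaves little sequence where the rule allows a member, so the 0 says little. The rank of the loci by members was thus not the rank by inhibitor cover.

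For contrast, ribosomal protein, histone and Zfp zinc finger genes were set beside the receptors. Ribosomal protein genes, which inhibitor peaks covered over a median of 100%, held 6 members in 97 genes, 4.83 per Mb (1.77 to 10.5), and 4 of 97 genes were touched. The 68 histone genes, with a median inhibitor cover of 0%, held 3 members in their short bodies, 27.2 per Mb with a wide interval (5.60 to 79.4). Zfp zinc finger genes had 32.2 per Mb (29.2 to 35.4), near the value of 32.2 over all coding gene bodies. Bodies of olfactory receptor genes had 61.0 per Mb (51.0 to 72.5), and 232 of 1110 held a member (20.9%), below the 34.7% of all coding genes, which are longer. The killer cell lectin-like genes had 123 per Mb (93.6 to 159), and 23 of 26 held a member.

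Few genes were covered broadly. Members covered at least 25% of the body of 674 coding genes (3.08%), among them 163 of the 1110 olfactory receptor genes, 24 of 124 vomeronasal type 2 genes and 15 of 26 killer cell lectin-like genes. These shares depend on gene length, since 1 short peak can cover 25% of a short body. The bodies of the 1110 olfactory receptor genes came to only 2.13 Mb. Of 5286 coding genes of at least 10 kb with no inhibitor peak, 2823 held a member (53.4%), 204 were covered over at least 25% and 35 over at least 50%. The 10 with the highest cover began with Klra7, followed by Chil4, a chitinase-like gene, at 78.7%, Gtsf2 at 78.2% and Klrc1. Next came Vmn2r98 at 69.4%, Rgs21, a regulator of G protein signalling, at 67.4%, Vmn2r96 at 66.8% and Klrk1. The last were Ifi214, a member of an interferon-inducible family, at 65.6% and the zinc finger gene Zfp985 at 65.1%. Each had between 1 and 6 members and no strong control peak, which 21029 of 21887 coding genes also lacked.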

How the data were processed

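H3K79me2 ChIP-seq peak lists of 2 libraries, 1 control and 1 inhibitor, were used as deposited. The submitters' processing notes name BWA, MACS2 2.1.0 and mm10 without their roles, and the sources used here do not give caller options or the use of the inputs. The files have no header. By broadPeak column order each deposited peak has a score, a fold (ratio to background), −log10 p and −log10 q, averaged over the peak by the authors. The deposited score is the whole part of 10 times −log10 q. Read depth is unknown.

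Peaks were intersected with RefSeq genes and start windows of GRCm38.p6 (21887 coding genes; 32851 windows, which hold 79.9% of them) with pandas 2.3.3, numpy 2.4.6 and scipy 1.17.1 under Python 3.11.15. Chromosome lengths came from GenomeInfoDb 1.38.1. Counts per region use peak midpoints. Functions were tested on simulated intervals. Genes named are the 8 widest and 8 highest-fold members, the 10 long genes with most members, the 5 with most bases under inhibitor peaks, the fullest cluster per family, the 10 best covered genes of at least 10 kb and the 5 densest bins; others were chosen after their values were seen, and 1 gene that the rule names is not reported here. Members and lists were chosen with earlier results of these data known. Alternatives were q above 0.5, a distance of 10 kb, a width of 1 kb, a fold of 3, merging, other bins, genes, clusters and lengths.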

Additional observations from a re-analysis of the deposited data

Results flagged for a closer look

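Of the unshared weak control peaks, 7 lay on 1 unplaced scaffold outside the chromosomes. They were 400 to 7051 bp wide with folds from 1.18 to 2.09. The inhibitor list had 0 peaks on that scaffold and 8 on 2 other scaffolds. Members are chosen for having no inhibitor peak over them, so these counts do not compare the conditions. The 7 peaks count among the 98333 in the totals, widths, folds and q-values, and in no comparison by chromosome, bin, gene or cluster.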

How the results depend on the processing

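No paired analysis was possible because each condition had 1 library. Of 44 values under alternative settings, 20 stayed within counting error of the reported value (within 1.5 times for the number of peaks) and 24 did not. With q above 0.5 in place of 0.05 all results stayed within it, but 97861 of the 98333 peaks remained, so this setting could hardly move a value. Merging control peaks within 1 kb changed nothing, since gaps were larger. Most of the values that stayed came from these settings, so their number is no measure of robustness. No member had a fold of at least 3, so that setting gave no value.

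With no inhibitor peak within 10 kb, the median width was 1178 bp, the median gap 10.3 kb, the distance to an inhibitor peak 86.3 kb and the median fold 1.67. The genic share was 29.7% of bases, bins without a gene held 13.9% of members, the long genes had 37.1 and the clusters 45.9 per Mb, the autosomes 32.9 per Mb, and the ratio of autosomes to X was 14.6. On autosomes alone the long-gene list was then 1.19 times as dense as the autosomes, against 1.02 times as reported, and the clusters 1.42 times, against 1.29. Both ratios divide by all sequence, also that within 10 kb of inhibitor peaks, where this setting allows no peak. Sets with little inhibitor cover lose fewer peaks by it, so the rise is partly built in and does not show a stronger excess.

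With a width of at least 1 kb, 56533 peaks remained, with a median width of 1757 bp, a gap of 14.9 kb, a distance of 52.2 kb and a fold of 1.67. The genic share was 32.7%, the long genes had 21.2 and the clusters 32.7 per Mb, the autosomes 23.4 per Mb, the ratio to X was 18.4 and 0.732% covered a gene start. The long-gene list on autosomes was then 0.955 times as dense as the autosomes, just below them, and the clusters stayed above at 1.42 times.

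With genes of all types, 42.4% of bases were genic, against 46.7% of the genome. In bins of 5 Mb, 0% of members lay in a bin without a coding gene. With cluster gaps of at most 100 kb the clusters had 54.1 per Mb. The cause of these shifts was not tested. Unknown read depth limits all values: a weak peak missing from a list is not shown to be absent from the cells.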
